A study of Homo sapiens with 12 samples.

Results

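The heat shock proteins and cochaperones were taken as 37 genes, named by symbol and looked up in a table of 23583 rows; all 37 were found, and all 37 were among the 16946 rows with enough counts to be tested. They comprise 2 transcription factors, 7 HSP70 proteins, 3 HSP110 proteins, 3 HSP90 proteins, 3 small heat shock proteins, the mitochondrial chaperonin pair, 8 J proteins, 4 BAG proteins, 4 HSP90 cochaperones and the ubiquitin ligase STUB1. The study silenced circASH2, a circular RNA, in Huh7 and HCCLM3, 2 human cell lines of hepatocellular carcinoma, and asked how this changed gene expression in the setting of metastasis. RNA-seq libraries made with a SMARTER mRNA kit fall into 4 groups of 3, in which Huh7 and HCCLM3 each received a control siRNA (si-NC) or an siRNA against circASH2 (si-circASH2). The labels give neither the dose, the time after transfection nor any other agent, and they leave unstated whether replicate libraries stem from separately grown cultures. The p-values below therefore measure the spread between libraries, which may be technical. Each group rests on 1 established line, and the labels name the silencing agent only as si-circASH2.

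Heat shock proteins are molecular chaperones that bind unfolded protein and help it fold, and many of them are made in larger amounts when cells meet heat, proteasome block or other stress to their proteins. The transcription factor HSF1 drives that induction by binding repeated GAA and TTC units, the heat shock element, in the promoters of its targets. HSP70 takes clients from J proteins, hands some of them to HSP90, and is recharged by nucleotide exchange factors of the HSP110 and BAG families; small heat shock proteins hold unfolded chains without using ATP.

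Library totals ran from 29006781 to 30858895 counts, so that 3 counts corresponded to 0.0981 to 0.105 CPM (counts scaled to library size), and mitochondrial transcripts took 6.94% to 10.3% of each library. Gene counts do not separate a circle from its linear transcript, so the silencing of circASH2 itself was not measured; its host gene ASH2L fell by 0.19 log2 units in Huh7 and 0.24 in HCCLM3. The labelled cell type was checked against 10 hepatocyte genes: all 10 exceeded 1 CPM in Huh7, where they summed to 34042 to 37275 CPM, whereas in HCCLM3 7 of 10 did and they summed to 190 to 202 CPM, with ALB at 2.10 to 4.19 CPM and SERPINA1 at 0 to 0.0700 CPM. Of 4 epithelial genes, the keratins KRT8 and KRT18 were at or above 923 CPM in every library, whereas EPCAM was at 24.1 to 29.9 CPM in Huh7 and 0.168 to 0.505 CPM in HCCLM3, and CDH1 at 91.6 to 126 and 7.80 to 9.58 CPM. Fibroblast genes summed to 37.9 to 43.3 CPM with si-NC and 59.9 to 61.1 CPM with si-circASH2 in Huh7, and to 35.9 to 38.4 and 49.5 to 53.9 CPM in HCCLM3; 5 of 7 exceeded 1 CPM in Huh7 and 2 of 7 in HCCLM3, DCN was at 0 in Huh7, and COL1A1 stayed at or under 0.420 CPM in HCCLM3. Most of these sums came from COL1A2 in Huh7, at 21.8 to 27.1 CPM with si-NC and 38.1 to 39.4 CPM with si-circASH2, and from LUM in HCCLM3, at 33.1 to 36.2 and 46.3 to 49.7 CPM. Of the 6 leukocyte genes only CD68 exceeded 1 CPM on average; the list summed to 20.5 to 21.5 CPM with si-NC and 36.8 to 40.9 CPM with si-circASH2 in Huh7, and to 143 to 164 and 171 to 207 CPM in HCCLM3, while CD3E was at 0 in every library. The endothelial list summed to 20 to 27.9 CPM throughout, with CDH5 at or under 0.131 CPM, PECAM1 at 12 to 27.2 CPM, and KDR at 0 in Huh7 and 6.68 to 11.7 CPM in HCCLM3. The part of these lists in the chaperone results was not tested.

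Heat shock elements were looked for in the members' promoters, since they are the DNA to which HSF1 binds. Promoter windows of 300 bases (250 before to 50 after each annotated start, RefSeq, GRCh38.p14) were available for 32 of the 37 members in 47 windows; HSF1, HSPA14, CRYAB, FKBP4 and STUB1 had no entry. The motif searched was 3 alternating units, GAANNTTCNNGAA, on both strands, counting overlapping matches. It was present in the windows of 7 of 32 members (21.9%), namely HSPA8, HSP90AA1, HSP90AB1, HSPD1, DNAJA1, DNAJB6 and CHORDC1, against 166 of 27305 genes in the whole table (0.608%). By window the counts were 7 of 47 (14.9%) and 172 of 35116 (0.490%). The match with 8 flanking bases is printed below for each of the 7, 5′ to 3′ in the direction of the gene, with the GAA and TTC units in capitals. HSPA8 and HSP90AB1 are shown with both of their separate matches.
HSPA8 upstream match: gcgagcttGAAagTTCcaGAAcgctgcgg
HSPA8 match nearest the start: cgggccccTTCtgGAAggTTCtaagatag
HSP90AA1: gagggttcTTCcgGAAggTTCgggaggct
HSP90AB1 upstream match: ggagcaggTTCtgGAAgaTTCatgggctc
HSP90AB1 match nearest the start: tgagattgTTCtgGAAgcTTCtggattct
HSPD1: attttctgGAAagTTCtgGAAccgagcga
DNAJA1: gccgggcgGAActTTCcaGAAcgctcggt
DNAJB6: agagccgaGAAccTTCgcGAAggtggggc
CHORDC1: cgcgaccgGAAaaTTCgcGAAggttcctg
In HSPA8 the matches, with their flanks, lie at chr11:123062346-123062374 and chr11:123062171-123062199 on the minus strand, and the motifs themselves begin 230 and 55 bases before the start. Those of HSP90AB1 lie at chr6:44247770-44247798 and chr6:44247823-44247851 on the plus strand, 165 and 112 bases before 1 of its 3 annotated starts. The match of HSP90AA1 is at chr14:102087112-102087140 (minus strand, 88 bases before 1 of its 2 annotated starts) and that of DNAJB6 at chr7:157336865-157336893 (plus strand, 131 bases before). CHORDC1 at chr11:90223089-90223117 (minus strand, 60 bases before) has 3 overlapping matches in 1 run of units, and HSPD1 at chr2:197500060-197500088 (minus strand, 240 bases before 1 of its 2 annotated starts) has 2; 1 of each is printed. In DNAJA1 the motif, within chr9:33025268-33025296 (plus strand), begins 3 bases after the annotated start. No match in a window says only that these letters were not found there: the windows of HSPA1A, HSPA1B, DNAJB1, HSPH1, HSPB1 and BAG3 had none.

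With circASH2 silenced, the chaperone genes split. In both lines the stress-inducible HSP70 genes HSPA1A and HSPA1B, the testis-enriched HSPA2, the small heat shock proteins HSPB1 and CRYAB and the J protein DNAJA1 rose, and HSPA4L, an HSP110-type exchange factor, fell. In Huh7, 9 of 37 members rose (24.3%, against 16.3% of all tested features), 5 fell (13.5%, against 15.1%) and 23 did not pass an adjusted p of 0.05. In HCCLM3, 11 rose (29.7%, against 15.1%), 3 fell (8.11%, against 15.5%) and 23 did not pass. The members' median log2 fold change was 0.02 in Huh7 and 0.07 in HCCLM3, beside 0.01 and 0 for all tested features.

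Most changes were small. Of the 14 members past the threshold in each line, 8 in Huh7 and 10 in HCCLM3 had an absolute log2 fold change under 0.3. CRYAB was the only member past the threshold in either line to change by more than 2-fold. The 3 libraries with si-circASH2 all lay above the 3 with si-NC for 9 of 37 members and all below them for 7 in Huh7. Of all 16946 tested features, 3801 lay above and 3439 below in that line, together 42.7%. In HCCLM3 the counts were 17 and 6 of 37 members, against 3700 and 3707 features, together 43.7%. Across both lines 21 members passed in at least 1, of which 6 rose in both, 1 fell in both and none moved in opposite directions. HSPA1A and HSPA1B, which share most of their sequence, are counted separately among the 6. Of all tested features 47.1% passed in at least 1 line, 5.64% rose in both, 5.71% fell in both and 3.46% moved in opposite directions. Each value is an average over the cells of a library, so a change in every cell and a change in a fraction of the cells cannot be told apart.

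**Figure D1:**
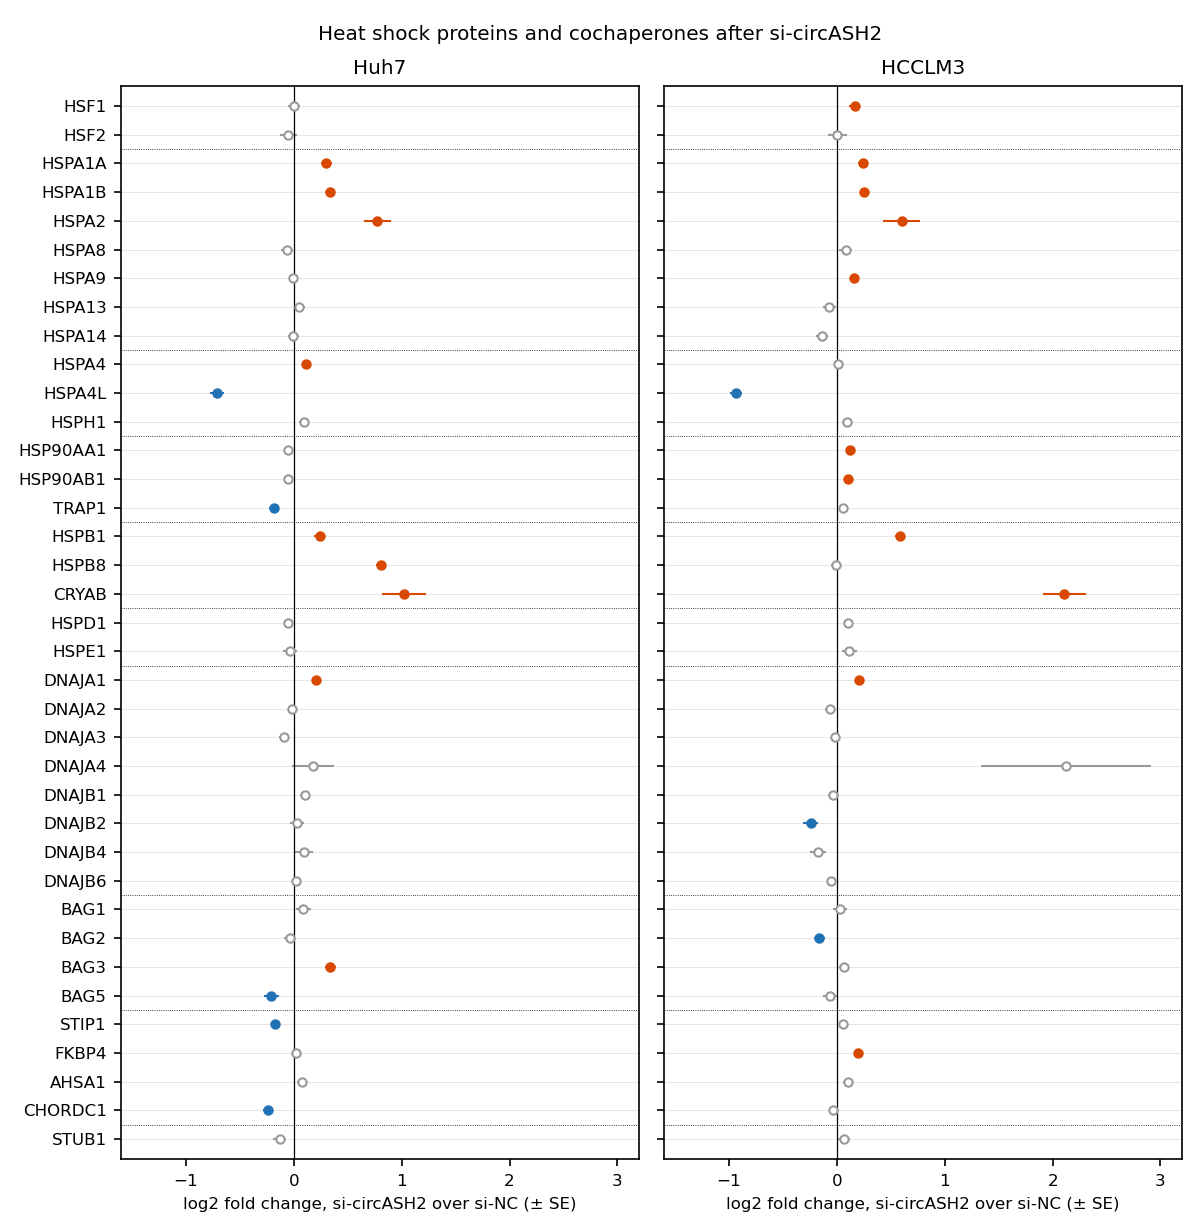
Log2 fold change of si-circASH2 over si-NC (x axis, ± SE, 3 libraries a group) for the 37 members (y axis, grouped by role) in Huh7 (left) and HCCLM3 (right). Filled orange points rose and filled blue points fell at an adjusted p under 0.05, and open grey points did not pass; HSPA4L lies to the left and CRYAB to the right in both lines, HSPB8 lies at 0.81 in Huh7 and at -0.01 in HCCLM3, and the wide bar of DNAJA4 in HCCLM3 rests on 12 counts.

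Of the transcription factors, HSF1, the main driver of the heat shock response, was at 40.7, 48.4 and 45.9 CPM with si-NC and 47.7, 43.6 and 43.5 CPM with si-circASH2 in Huh7. In HCCLM3 it was at 107, 106 and 102 CPM with si-NC and 113, 122 and 117 CPM with si-circASH2. The groups overlapped in Huh7 (log2 fold change -0.0018 ± 0.06, adjusted p = 1, edgeR quasi-likelihood test with Benjamini-Hochberg adjustment, as for all adjusted p below), and all 3 libraries were higher in HCCLM3, where HSF1 rose by 0.16 ± 0.05 (adjusted p = 0.0161). That rise did not pass without si-NC replicate 3 (adjusted p = 0.0785) and, leaving out si-circASH2 replicate 2, gave 0.0817. HSF2, a related factor that can pair with HSF1, passed in neither line (-0.05 ± 0.08 in Huh7 and 0.0058 ± 0.09 in HCCLM3).

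HSPA1A (chr6:31815464-31817946) and HSPA1B (chr6:31827735-31830255; plus strand, GRCh38) encode nearly the same stress-inducible HSP70 and lie 9788 bases apart. Of the 50-base words in HSPA1A transcripts 72.6% occur in other genes, and 73.5% of those in HSPA1B, each mainly in the other, so that reads could be split between them in counting. HSPA1A read 49.6, 50.4 and 46.1 CPM with si-NC and 65.8, 58.0 and 56.1 CPM with si-circASH2 in Huh7, and 415, 403 and 398 CPM with si-NC and 482, 487 and 469 CPM with si-circASH2 in HCCLM3. HSPA1B read 45.5, 43.7 and 42.2 CPM with si-NC and 58.9, 52.9 and 53.9 CPM with si-circASH2 in Huh7, and 283, 273 and 267 CPM with si-NC and 318, 335 and 329 CPM with si-circASH2 in HCCLM3. In both lines all 3 libraries with si-circASH2 lay above all 3 with si-NC, for either gene. HSPA1A rose by 0.30 ± 0.05 (adjusted p = 5.36e-05) in Huh7 and 0.24 ± 0.04 (0.000163) in HCCLM3. HSPA1B rose by 0.33 ± 0.05 (4.56e-06) and 0.25 ± 0.04 (3.59e-05). Added together, which does not depend on how shared reads were split between them, the pair rose by 0.32 ± 0.04 in Huh7 (adjusted p = 4.09e-06) and by 0.25 ± 0.04 in HCCLM3 (4.57e-05), and the lines did not differ detectably (-0.07 ± 0.06, adjusted p = 0.460).

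HSPA2 (chr14:64535905-64546173, plus strand), an HSP70 best known from male germ cells, was scarce. HSPA2 read 8.04, 7.51 and 8.26 CPM with si-NC and 15.1, 13.0 and 12.7 CPM with si-circASH2 in Huh7, where the groups were well apart, and the gene rose by 0.78 ± 0.13 (adjusted p = 5.12e-05). In HCCLM3 it was at 1.78, 1.54 and 1.93 CPM with si-NC and 2.00, 2.92 and 3.06 CPM with si-circASH2. All 3 silenced libraries were again higher, by 0.60 ± 0.17 (adjusted p = 0.00973), although the lowest of them was close to the highest control, and the rise did not pass without si-circASH2 replicate 3 (adjusted p = 0.0616).

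HSPA8, the constitutive cytosolic HSP70 with motif matches printed above, passed in neither line. HSPA8 read 1232, 1172 and 1050.2 CPM with si-NC and 1117, 1167 and 1017 CPM with si-circASH2 in Huh7, with the groups overlapping (-0.07 ± 0.06, adjusted p = 0.446), and 2634, 2739 and 2662 CPM with si-NC and 2833, 2925 and 2741 CPM with si-circASH2 in HCCLM3, where all 3 silenced libraries were higher (0.08 ± 0.06, 0.332). Without si-NC replicate 3 in Huh7 the first of these passed as a fall (adjusted p = 0.0407), and with each line fitted alone the second passed as a rise (0.0200). HSPA9, the mitochondrial HSP70, rose in HCCLM3 by 0.15 ± 0.03 (adjusted p = 0.00118) and read -0.01 in Huh7 (adjusted p = 0.854). HSPA13, a microsomal HSP70 (0.05 in Huh7 and -0.07 in HCCLM3), and HSPA14, which is bound to ribosomes, passed in neither line; HSPA14 stood at -0.14 ± 0.05 in HCCLM3 (adjusted p = 0.0543) and passed there without si-circASH2 replicate 2 (0.0341).

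Among the HSP110 proteins, which exchange nucleotide on HSP70, HSPA4L (chr4:127781821-127840733, plus strand) fell further than any other member in both lines. HSPA4L read 16.8, 16.6 and 15.3 CPM with si-NC and 9.65, 9.58 and 10.5 CPM with si-circASH2 in Huh7. In HCCLM3 it was at 69.6, 69.7 and 67.2 CPM with si-NC and 35.0, 36.9 and 36.0 CPM with si-circASH2. The groups did not overlap in either line, and each silenced library lay below all controls of its line. HSPA4L fell by 0.71 ± 0.07 log2 units in Huh7 (adjusted p = 1.78e-08) and by 0.94 ± 0.05 in HCCLM3 (3.97e-12); the difference between lines did not pass (-0.22 ± 0.09, adjusted p = 0.0698).

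HSPA4 and HSPH1, of the same family, did not fall. HSPA4 rose slightly in Huh7 (0.11 ± 0.04, adjusted p = 0.0199), a call lost without si-NC replicate 3 (adjusted p = 0.0721), leaving out si-circASH2 replicate 2 (0.156) and on FPKM in place of counts (0.132). HSPH1 read 130.5, 137 and 119.6 CPM with si-NC and 133, 146 and 132 CPM with si-circASH2 in Huh7, and 264, 267 and 258 CPM with si-NC and 283, 285 and 272 CPM with si-circASH2 in HCCLM3. HSPH1, the inducible HSP110, had overlapping groups in Huh7 (0.09 ± 0.05, adjusted p = 0.147); in HCCLM3 all 3 silenced libraries were higher but the difference did not pass (0.09 ± 0.04, 0.132), except with that line fitted alone (0.0227).

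HSP90AA1 and HSP90AB1, the inducible and the constitutive cytosolic HSP90, were among the most abundant members. Both have motif matches printed above. HSP90AA1 read 1311, 1306 and 1269.9 CPM with si-NC and 1213, 1289.9 and 1243 CPM with si-circASH2 in Huh7. In HCCLM3 it read 2225, 2283 and 2235 CPM with si-NC and 2454, 2497 and 2379.8 CPM with si-circASH2. HSP90AB1 read 1666, 1687 and 1595 CPM with si-NC and 1562, 1639.7 and 1551 CPM with si-circASH2 in Huh7, and 1752, 1792 and 1725 CPM with si-NC and 1869, 1935 and 1848 CPM with si-circASH2 in HCCLM3. For both genes the groups overlapped in Huh7, and in HCCLM3 all 3 silenced libraries lay above all 3 controls. HSP90AA1 stood at -0.05 ± 0.03 in Huh7 (adjusted p = 0.194) and rose by 0.12 ± 0.03 in HCCLM3 (0.00349). HSP90AB1 stood at -0.06 ± 0.03 (0.178) and rose by 0.10 ± 0.03 (0.0169), a call lost without HCCLM3 si-NC replicate 1 (adjusted p = 0.0646) or 3 (0.0924), or without si-circASH2 replicate 2 (0.0728). TRAP1, the mitochondrial HSP90, fell in Huh7 (-0.19 ± 0.04, adjusted p = 0.00111) and did not pass in HCCLM3 (0.06 ± 0.04, 0.277).

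Among the members past the threshold, the small heat shock protein CRYAB had the largest rise in both lines. CRYAB, alpha B-crystallin (chr11:111908565-111923722, minus strand), was near the bottom of the list in level. CRYAB read 2.07, 1.40 and 1.34 CPM with si-NC and 3.42, 3.55 and 2.84 CPM with si-circASH2 in Huh7. In HCCLM3 it read 1.28, 1.44 and 1.70 CPM with si-NC and 7.32, 6.0 and 5.74 CPM with si-circASH2. The lowest silenced library exceeded the highest control in both lines, and the gap was wider in HCCLM3. CRYAB rose by 1.02 ± 0.20 in Huh7 (adjusted p = 0.000362) and by 2.11 ± 0.20 in HCCLM3 (1.91e-08).

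HSPB1, also called HSP27 (chr7:76302544-76304295, plus strand), is the abundant small heat shock protein of these lines. HSPB1 read 144, 144 and 140.2 CPM with si-NC and 186, 155 and 163 CPM with si-circASH2 in Huh7, and 288, 281 and 277 CPM with si-NC and 411, 432 and 428 CPM with si-circASH2 in HCCLM3, without overlap in either. The rise was 0.24 ± 0.05 in Huh7 (adjusted p = 0.000520) and 0.59 ± 0.05 in HCCLM3 (2.98e-09). HSPB8 (chr12:119178642-119221131, plus strand), which works with BAG3 and HSP70 in the selective autophagy of misfolded protein, went up in 1 line. HSPB8 read 34.3, 32.3 and 34.3 CPM with si-NC and 59.5, 60.6 and 56.5 CPM with si-circASH2 in Huh7, and 99.4, 102 and 101 CPM with si-NC and 96.3, 98.9 and 105 CPM with si-circASH2 in HCCLM3. The Huh7 groups were far apart (0.81 ± 0.05, adjusted p = 4.95e-12) and the HCCLM3 groups overlapped (-0.01 ± 0.04, 0.893).

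BAG3, the BAG partner of HSPB8 and itself a classical heat shock gene (chr10:119651370-119677819, plus strand), followed the same split. BAG3 read 31.8, 30.6 and 31 CPM with si-NC and 41.9, 38.1 and 38.0 CPM with si-circASH2 in Huh7, and 98.0, 99.8 and 91.8 CPM with si-NC and 101, 103 and 99.2 CPM with si-circASH2 in HCCLM3. All silenced Huh7 libraries lay above the controls (0.34 ± 0.05, adjusted p = 1.39e-05), whereas in HCCLM3 the lowest silenced library lay below the highest control (0.07 ± 0.04, 0.299). Of the other BAG proteins, BAG1, the founding HSP70 exchange factor of the family, passed in neither line (0.09 and 0.03). BAG2, which inhibits STUB1, fell in HCCLM3 (-0.16 ± 0.05, adjusted p = 0.0135), a call lost without si-NC replicate 3 (adjusted p = 0.0549) or si-circASH2 replicate 2 (0.0654). BAG5 fell in Huh7 (-0.21 ± 0.07, adjusted p = 0.0195), a call lost without any 1 of si-NC replicates 1 and 2 (0.105 and 0.0615) and si-circASH2 replicates 2 and 3 (0.0700 and 0.0610).

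**Figure D2:**
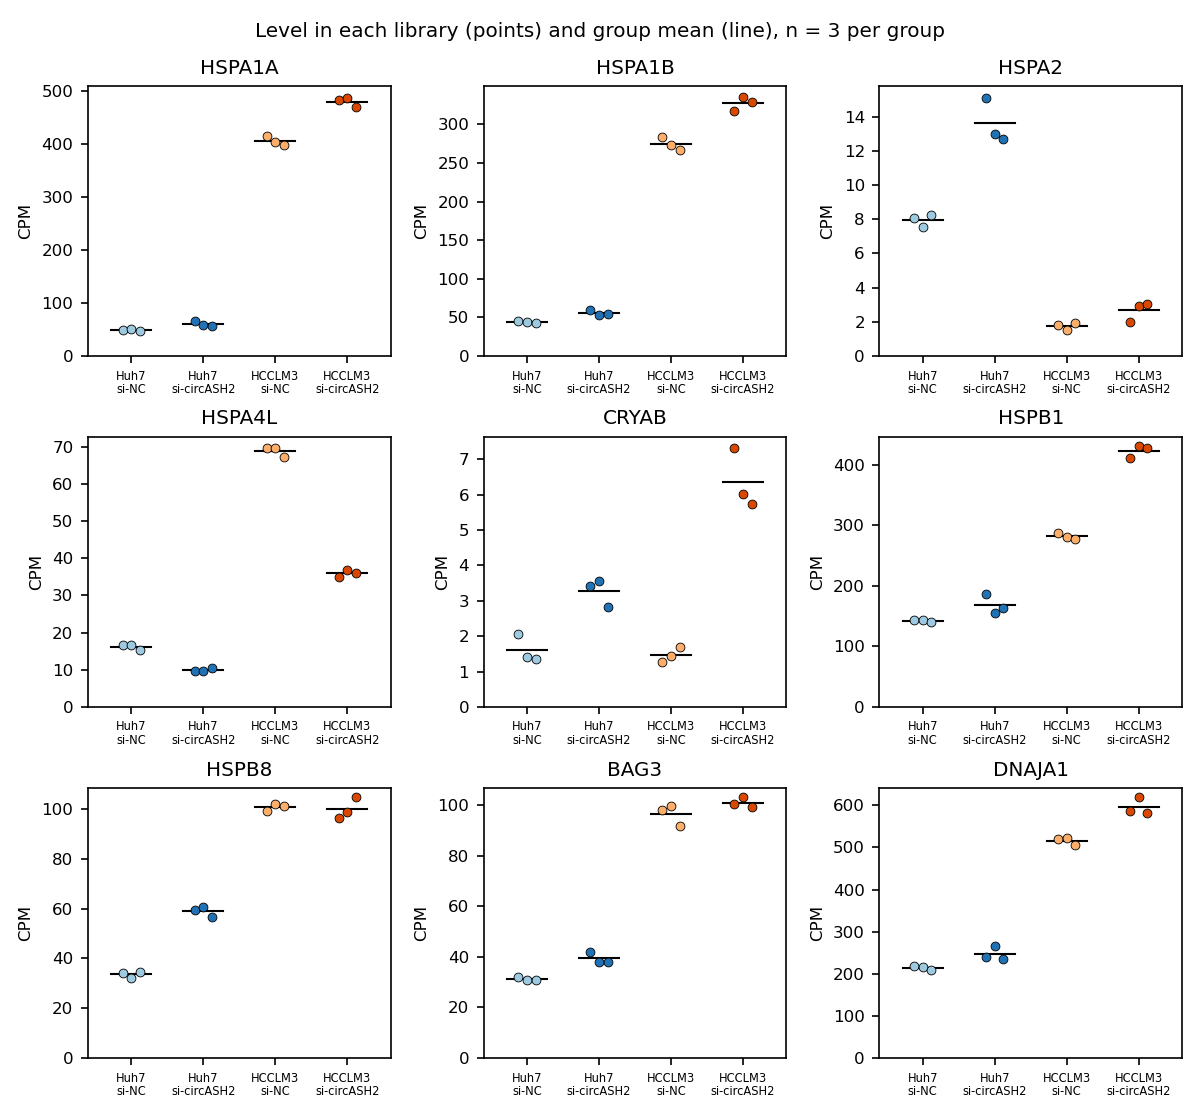
CPM (y axis, from 0, own scale per panel) of 9 members in each of the 12 libraries (points) by group (x axis), with the group mean as a line. HSPA1A, HSPA1B, HSPA2, HSPB1, CRYAB and DNAJA1 are higher with si-circASH2 in both lines, HSPA4L is lower in both, and HSPB8 and BAG3 separate in Huh7 while their HCCLM3 groups overlap.

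The mitochondrial chaperonin HSPD1 and its lid HSPE1 are read from head-to-head starts, 105 or 539 bases apart by the annotated start of HSPD1. The motif match printed above lies in the window of the farther start, and the window of the nearer start had none. HSPD1 read 1138, 1150.4 and 1089.6 CPM with si-NC and 1033, 1168 and 1057 CPM with si-circASH2 in Huh7, and 957, 1004 and 979 CPM with si-NC and 1068, 1073 and 1015 CPM with si-circASH2 in HCCLM3. HSPE1 read 209, 243 and 206 CPM with si-NC and 221, 217 and 202 CPM with si-circASH2 in Huh7, and 176, 197 and 187 CPM with si-NC and 188, 212 and 206 CPM with si-circASH2 in HCCLM3. All 3 silenced HCCLM3 libraries were above the controls for HSPD1, and the other 3 contrasts overlapped. Neither gene passed: HSPD1 stood at -0.05 ± 0.04 in Huh7 (adjusted p = 0.346) and 0.10 ± 0.04 in HCCLM3 (0.0501), and HSPE1 at -0.04 ± 0.07 (0.727) and 0.12 ± 0.07 (0.220). HSPD1 in HCCLM3 lay at the threshold and passed, for example, without si-circASH2 replicate 3 (0.0358) or with that line fitted alone (0.00451). In Huh7 it passed as a fall without si-circASH2 replicate 2 (0.0245). Of the 50-base words of HSPD1 24.8% occur in other genes, mainly the pseudogene HSPD1P1, and of those of HSPE1 27.2%, mainly the readthrough gene HSPE1-MOB4 at the same locus.

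J proteins deliver clients to HSP70. DNAJA1, the main cytosolic class A member with a motif match printed above, was the only 1 of 8 to pass in both lines. DNAJA1 read 219, 215 and 208 CPM with si-NC and 241, 267 and 235 CPM with si-circASH2 in Huh7, and 519.8, 523 and 505 CPM with si-NC and 588, 621 and 581 CPM with si-circASH2 in HCCLM3. The groups did not overlap, and the rises were 0.21 ± 0.04 (adjusted p = 0.000380) and 0.21 ± 0.04 (0.000316). DNAJB1 read 66.0, 63.2 and 62.8 CPM with si-NC and 70.2, 71.7 and 64.0 CPM with si-circASH2 in Huh7, and 197, 205 and 197 CPM with si-NC and 189, 195 and 201 CPM with si-circASH2 in HCCLM3. DNAJB1, the class B partner of inducible HSP70, overlapped in Huh7, where 1 silenced library lay below the highest control (0.10 ± 0.04, adjusted p = 0.0940; 0.0166 when si-circASH2 replicate 3 was left out), and it stood at -0.04 ± 0.04 in HCCLM3 (0.569). DNAJB2, which escorts clients to the proteasome, fell in HCCLM3 (-0.24 ± 0.07, adjusted p = 0.0124); the call was lost without si-NC replicate 2 (0.0867) or si-circASH2 replicate 1 (0.0771).

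The cytosolic DNAJA2 (-0.01 in Huh7 and -0.07 in HCCLM3), the mitochondrial DNAJA3 (-0.09 and -0.01) and DNAJB6, which holds back protein aggregates (0.02 and -0.06), passed in neither line, and nor did DNAJB4 or DNAJA4. DNAJB2 stood at 0.03 ± 0.07 in Huh7 (adjusted p = 0.791). DNAJB4 in HCCLM3 stood at -0.17 ± 0.08 (adjusted p = 0.0922), passing with that line fitted alone (0.00803), and in Huh7 at 0.09 ± 0.08 (0.440), passing as a rise without si-NC replicate 1 (0.0189). DNAJA4 stood at 0.18 ± 0.20 in Huh7 (0.554) and was at or near the floor in HCCLM3: si-NC libraries held 2, 0 and 0 counts and si-circASH2 libraries 4, 3 and 3. The ratio of 10 to 2 counts was 4.97 with a 95% interval, for counting error only, of 1.06 to 46.6, and the fitted change did not pass (adjusted p = 0.0524), though it did when si-NC replicate 1 was left out (0.00939).

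Of the 4 HSP90 cochaperones, STIP1 and CHORDC1 fell in Huh7 and FKBP4 rose in HCCLM3. STIP1, which joins HSP70 to HSP90, fell in Huh7 from 231, 239 and 213 CPM to 202, 203 and 199 CPM (-0.18 ± 0.04, adjusted p = 0.000668) and stood at 0.06 ± 0.04 in HCCLM3 (0.228). CHORDC1, an HSP90-binding protein whose window held the longest run of units printed above, fell in Huh7 from 55.6, 55.3 and 51.8 CPM to 43.5, 47.9 and 46.2 CPM (-0.24 ± 0.04, 0.000179) and stood at -0.03 ± 0.04 in HCCLM3 (0.616). Neither gene's Huh7 groups overlapped. FKBP4, the immunophilin of steroid receptor complexes, rose in HCCLM3 from 281, 283 and 292 CPM to 332, 313 and 336 CPM (0.20 ± 0.04, adjusted p = 0.000213) and stood at 0.02 ± 0.04 in Huh7 (0.743). AHSA1, the activator of the HSP90 ATPase, did not pass in Huh7 (0.08 ± 0.04, 0.199) or HCCLM3 (0.10 ± 0.04, 0.0623), although the latter passed without si-circASH2 replicate 2 (0.0341). STUB1, the ubiquitin ligase that marks chaperone clients for degradation, passed in neither line (-0.13 ± 0.06 and 0.07 ± 0.05), except with FPKM in Huh7 (adjusted p = 0.0320).

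Whether the lines responded differently was tested as the knockdown in HCCLM3 minus that in Huh7. This difference was positive for 10 of 37 members (27.0%, against 9.6% of all tested features), negative for 3 (8.11%, against 11.3%) and not past the threshold for 24. On the positive side the 6 with the largest values were CRYAB (1.08 ± 0.29, adjusted p = 0.00777), HSPB1 (0.35 ± 0.07, 0.000581), TRAP1 (0.25 ± 0.06, 0.00297), STIP1 (0.24 ± 0.05, 0.00174), CHORDC1 (0.21 ± 0.06, 0.0145) and FKBP4 (0.18 ± 0.05, 0.0191). CRYAB and HSPB1 rose more in HCCLM3, whereas TRAP1, STIP1 and CHORDC1 fell in Huh7 and did not pass in HCCLM3. All 3 HSP90 proteins were on this side. On the negative side stood HSPB8 (-0.82 ± 0.06, 2.04e-09), BAG3 (-0.27 ± 0.07, 0.00492) and DNAJB2 (-0.27 ± 0.10, 0.0487). The DNAJB2 difference was lost without any 1 of 8 libraries (for example 0.152 without HCCLM3 si-NC replicate 2). CHORDC1 was lost without HCCLM3 si-circASH2 replicate 1 (adjusted p = 0.0524), and FKBP4 without that library (0.0621), HCCLM3 si-NC replicate 1 (0.0645), si-circASH2 replicate 3 (0.0648) or Huh7 si-NC replicate 1 (0.0651). Without HCCLM3 si-circASH2 replicate 1 the difference passed for 8 members rather than 13, of which 6 were positive. The share of all tested features passing without that library was not computed.

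More members differed between the control libraries of the 2 lines than in either knockdown. With si-NC, 27 of 37 members were higher in HCCLM3 (73.0%, against 41.6% of all tested features), 9 were lower (24.3%, against 43.6%), and CRYAB did not pass (-0.12 ± 0.22, adjusted p = 0.60). The members' median was 0.79 log2 units, beside -0.04 for all tested features. More than 2-fold differences were seen for 19 members, but the share of all tested features differing this much was not computed. The 2 lines are single lines, so these values describe Huh7 and HCCLM3 and no class of tumour.

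Among the members higher in HCCLM3, the inducible HSP70 genes showed the widest gap. HSPA1A and HSPA1B, with the library values given above, were higher in HCCLM3 by 3.06 ± 0.05 (adjusted p = 1.65e-24) and 2.65 ± 0.05 (1.74e-24), and all HCCLM3 controls lay above all Huh7 controls. HSPA4L followed at 2.08 ± 0.06 (2.46e-20), then DNAJB1 at 1.64 ± 0.04 (1.12e-20), BAG3 at 1.63 ± 0.05 (9.19e-20) and CHORDC1 at 1.61 ± 0.04 (1.03e-20). HSF1 was higher by 1.22 ± 0.05 (3.31e-16) and HSPA8 by 1.22 ± 0.06 (1.45e-10).

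Of the 9 members lower in HCCLM3, the widest gap was that of DNAJA4. It summed to 373 counts in the 3 Huh7 controls and 2 in those of HCCLM3, a ratio of 182 with a 95% counting interval of 50.1 to 1511. HSPA2 followed at -2.18 ± 0.16 (adjusted p = 3.89e-12). HSPA13 read 57.6, 55.0 and 54.7 CPM in Huh7 and 21.9, 21.0 and 21.4 CPM in HCCLM3 (-1.38 ± 0.06, 3.79e-17). HSF2 read 31.7, 29.7 and 30.1 CPM in Huh7 and 15.4, 13.2 and 17.0 CPM in HCCLM3 (-1.003 ± 0.08, 6.88e-11), opposite in sign to HSF1, and in neither case did the lines overlap. DNAJB2 (-0.79 ± 0.07, 1.69e-10) and DNAJB6 (-0.33 ± 0.04, 1.75e-08) completed the 6 largest. The remaining 3 were HSPE1, HSPD1 and HSPA9, at -0.23, -0.20 and -0.17. All 3 are mitochondrial, but the mitochondrial members TRAP1 and DNAJA3 were higher in HCCLM3, by 0.56 and 0.42.

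**Figure D3:**
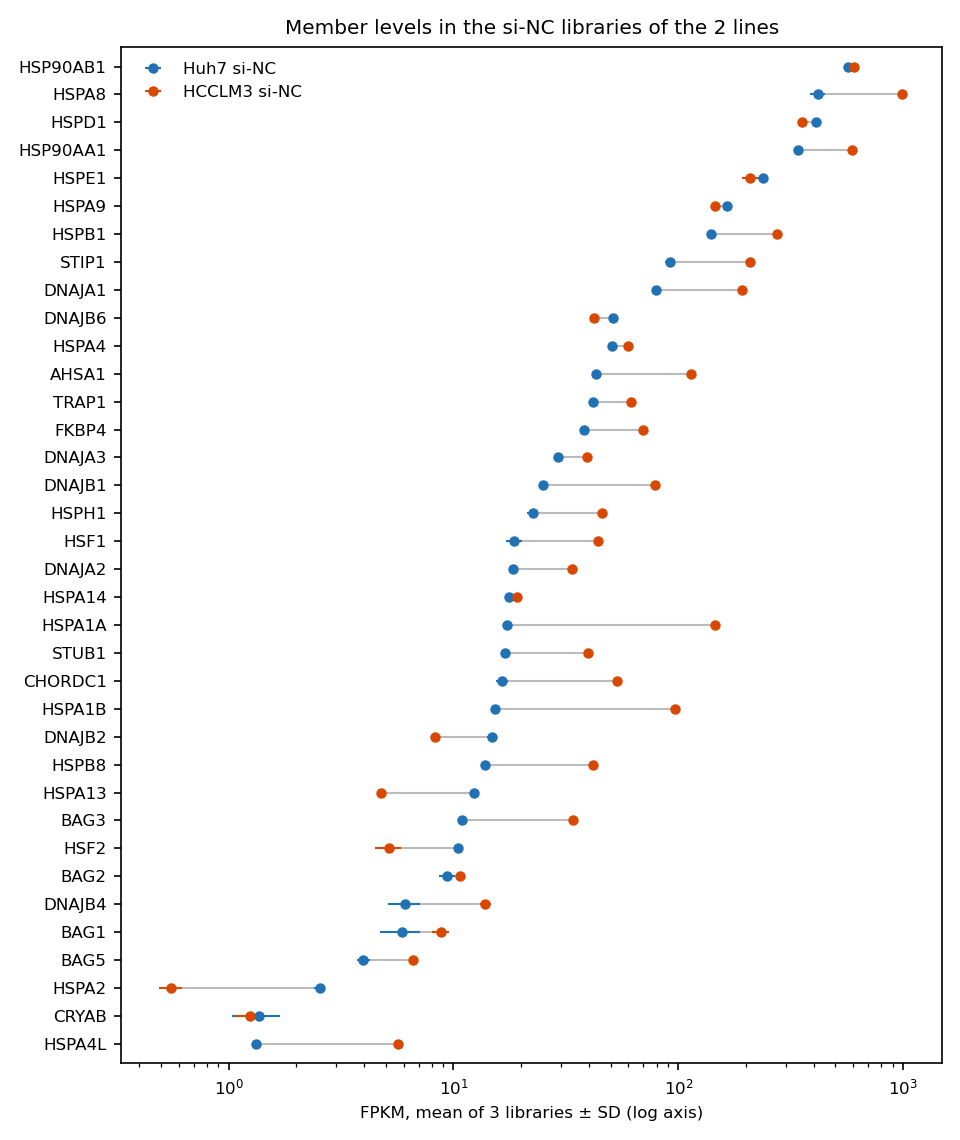
Mean FPKM ± SD of 36 members in the 3 si-NC libraries of Huh7 (blue) and HCCLM3 (orange), on a log x axis, ordered by the Huh7 level; a grey line joins the lines' means, and DNAJA4, listed at 0 in 2 HCCLM3 libraries, is left out. HSP90AB1 lies at the top with almost the same level in both lines, and HSPA1A and HSPA1B have the widest gaps drawn, from 17.4 to 145 and from 15.4 to 96.7 FPKM.

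Levels of different genes were compared by the deposited FPKM, which divides by gene length. In Huh7 with si-NC, HSP90AB1 led at 567 ± 13.8 FPKM (mean ± SD, n = 3), followed by HSPA8 at 418 ± 33.5, HSPD1 at 410.0 ± 5.54 and HSP90AA1 at 339 ± 5.47. The order of HSPA8 and HSPD1 does not exceed their spread. In HCCLM3 with si-NC, HSPA8 led at 988 ± 28.0 FPKM, and HSP90AB1 at 605 ± 8.55 and HSP90AA1 at 590.1 ± 2.44 lay close together, ahead of HSPD1 at 356 ± 3.01. At the bottom, DNAJA4 (1.26 ± 0.167 FPKM), HSPA4L (1.33 ± 0.0638 FPKM) and CRYAB (1.37 ± 0.328 FPKM) overlapped in Huh7 with si-NC. With si-circASH2, CRYAB reached 2.86 ± 0.179 FPKM in Huh7 and 5.64 ± 0.872 FPKM in HCCLM3, still far under HSPB1 at 162 ± 12.3 and 415 ± 6.74 FPKM. As a share of all FPKM, the 37 members took 0.684% to 0.705% of the Huh7 control libraries and 0.674% to 0.724% of the silenced ones, which overlap, against 1.08% to 1.10% and 1.19% to 1.21% in HCCLM3, which do not.

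Ratios between members within a library do not depend on its depth. HSP90AA1 stood at 0.599 ± 0.00851 times HSP90AB1 in FPKM (mean ± SD, n = 3) in Huh7 with si-NC and 0.601 ± 0.00975 with si-circASH2, against 0.975 ± 0.0104 and 0.988 ± 0.0106 in HCCLM3. The sum of HSPA1A and HSPA1B over HSPA8 went from 0.0786 ± 0.00345 to 0.102 ± 0.00835 in Huh7 and from 0.245 ± 0.00249 to 0.279 ± 0.00566 in HCCLM3. HSPD1 over HSPE1, the divergent pair, lay between 1.72 and 1.74 in the 4 group means. With 3 libraries against 3, an exact two-sided permutation test cannot go below p = 0.1. The HSP70 ratio reached that value in both knockdowns and between the controls, as did the HSP90 ratio between the controls (each adjusted to 0.225 over 9 tests), and the other 5 of the 9 tests gave exact p of 0.3 to 1.

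**Figure D4:**
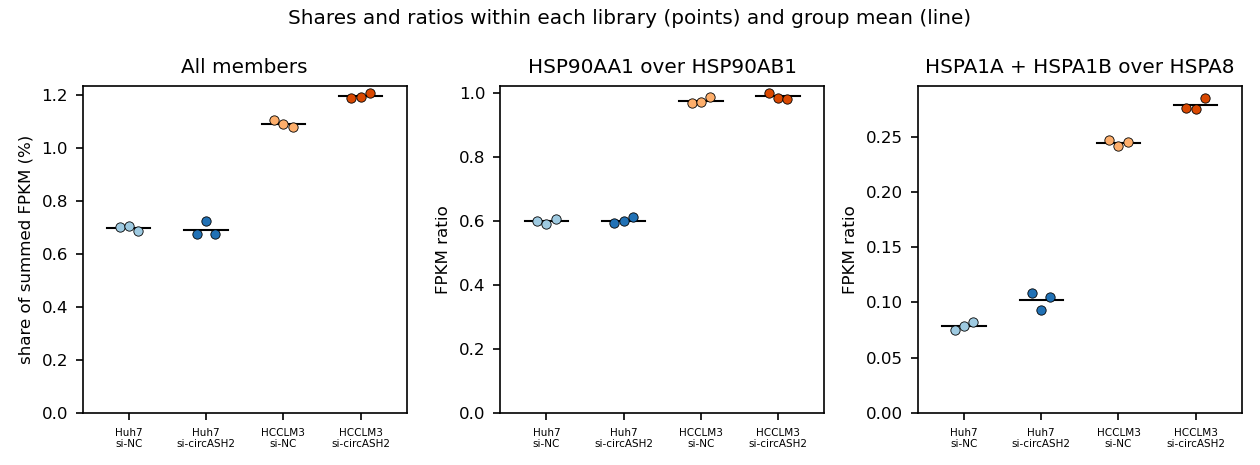
Share of summed FPKM taken by the 37 members (left, percent), HSP90AA1 over HSP90AB1 (middle) and HSPA1A plus HSPA1B over HSPA8 (right), in each library (points) with the group mean as a line and all y axes from 0. The HSP70 ratio is higher with si-circASH2 in both lines, and the HSP90 ratio averages 0.599 and 0.601 in the Huh7 groups and 0.975 and 0.988 in the HCCLM3 groups.

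Other genes of the chaperone network gave the setting. Of 75 listed, 71 had enough counts (HSPB2, HSPB3, CRYAA and HSF5 did not). In Huh7, 12 rose (16.9%, against 16.3% of all tested features), 13 fell (18.3%, against 15.1%) and 46 did not pass, with a median of -0.02. In HCCLM3, 9 rose (12.7%, against 15.1%), 11 fell (15.5%, against 15.5%) and 51 did not pass, with a median of -0.02. These shares lay near the background. With limma on log2(FPKM + 0.1), 3 rather than 12 rose in Huh7. The subunits of the cytosolic chaperonin TRiC, which folds actin and tubulin, moved as follows: 5 of 8 fell in Huh7 (62.5%, against 15.1% of all tested features) and none rose (against 16.3%), while in HCCLM3 2 fell (25%, against 15.5%) and 1 rose (12.5%, against 15.1%). SERPINH1, the collagen chaperone of the endoplasmic reticulum, had the smallest p in Huh7 and rose by 0.47 ± 0.04 (adjusted p = 6.34e-09) there and by 0.31 ± 0.04 (4.95e-06) in HCCLM3. LONP1, a mitochondrial protease, likewise rose by 0.32 ± 0.04 (3.39e-06) and 0.31 ± 0.04 (5.48e-06). In Huh7 the histone-binding J protein DNAJC9 (-0.57 ± 0.05, 1.52e-08), the TRiC subunit TCP1 (-0.28 ± 0.04, 6.66e-06), the HSP90 cochaperone PTGES3 (-0.23 ± 0.03, 9.28e-06) and CACYBP (-0.24 ± 0.04, 0.000114) fell. In HCCLM3, TCP1 (-0.20 ± 0.04, 0.000555) and PTGES3 (-0.15 ± 0.03, 0.00156) fell too, CACYBP stood at -0.09 ± 0.04 (0.0882) and DNAJC9 at 0.05 ± 0.05 (0.492). In HCCLM3 the stress-induced zinc finger protein ZFAND2A (-0.52 ± 0.06, 7.91e-07), the J protein DNAJB14 of the endoplasmic reticulum (-0.50 ± 0.07, 4.39e-06) and HSBP1L1 (-0.51 ± 0.08, 5.14e-05) fell, and the HSP70 partner ST13 rose (0.23 ± 0.04, 1.91e-05). In Huh7, DNAJB14 fell (-0.29 ± 0.07, 0.00146) and ST13 rose (0.11 ± 0.04, 0.0202) as well, while ZFAND2A stood at -0.11 ± 0.06 (0.208) and HSBP1L1 at -0.05 ± 0.10 (0.757). Of these 10 genes the difference between lines passed for ZFAND2A (-0.41 ± 0.09, adjusted p = 0.00130), HSBP1L1 (-0.46 ± 0.13, 0.0122) and DNAJC9 (0.63 ± 0.08, 1.52e-06).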

How the data were processed

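RNA from 2 human hepatocellular carcinoma lines, each with si-NC or si-circASH2, was sequenced in 12 libraries, 3 a group, and grouped by the labels. The authors deposited whole-number read counts and FPKM per gene in 1 table each, per the file headers; FPKM divides a count by gene length and library size. For the aligner, the counter and the use of strand, the answer is not given in the sources used here. Builds named by the submitters' processing notes are hg38, GRCm38 and mm10. Of the tested rows, 2505 carry assembly identifiers in place of symbols. The members and all gene lists were chosen with earlier results of these data known.

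Counts were fitted over all 16946 rows that passed edgeR's filterByExpr (minimum count 10), of 23583, with edgeR 4.0.16 (R 4.3.3): TMM scaling, robust quasi-likelihood F test, 1 coefficient a group, 8 residual degrees of freedom, Benjamini-Hochberg adjustment over all rows, threshold 0.05. CPM are TMM-scaled, and SE is the log2 fold change over the square root of F. Positive values mean higher with si-circASH2, or higher in HCCLM3. The FPKM served for levels between genes and, as log2(FPKM + 0.1) or log2(FPKM + 1) in limma 3.58.1, for alternatives; DESeq2 1.42.0 and its size factors, upper quartile scaling, no filter, each line alone, a replicate block, HSPA1A and HSPA1B added together, and leaving out each library were the others. Of these steps, only the edgeR fit was tested on simulated counts, for the Huh7 knockdown and with 1 common dispersion for all genes. Replicate pairs differed beyond sampling noise (chi-square per degree of freedom 3.89 to 8.53). Per-library values are given for members past the threshold with an absolute log2 fold change of at least 0.3 and for HSF1, HSPA8, HSPA1A, HSPA1B, HSP90AA1, HSP90AB1, HSPB1, DNAJB1, HSPH1, HSPD1, HSPE1, BAG3 and CRYAB; the controls and the difference name the 6 largest each way, and other chaperone genes the 6 smallest p per knockdown. DNAJA1, STIP1, CHORDC1, FKBP4, HSPA13 and HSF2 were added to the first after their values were seen. Gene positions are from GENCODE 29 (GRCh38). Words of 50 bases shared between transcripts marked genes whose reads may be split. Besides the 4 genes given above, the shares were 19.1% for DNAJB6, 18.8% for HSP90AB1, 17.5% for HSP90AA1, 15.4% for HSPA8 and 11.4% for HSPB1. The levels and ratios of these genes carry the same limit. Precision is limited by 29006781 to 30858895 counts a library and by counting intervals at 95%.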

Additional observations from a re-analysis of the deposited data

Results flagged for a closer look

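The response to si-circASH2 differed between HCCLM3 and Huh7, by edgeR's test of the interaction with Benjamini-Hochberg adjustment over all tested features, for 13 of 37 members. Values are the log2 fold change in HCCLM3 minus that in Huh7, ± SE, over 3 libraries a group. The small heat shock proteins went in opposite directions of the difference: CRYAB at 1.08 ± 0.29 (adjusted p = 0.00777) and HSPB1 at 0.35 ± 0.07 (adjusted p = 0.000581) rose more in HCCLM3, while HSPB8 at -0.82 ± 0.06 (adjusted p = 2.04e-09) rose in Huh7 alone past the threshold, as did its partner BAG3 at -0.27 ± 0.07 (adjusted p = 0.00492). The HSP90 proteins were all positive, with HSP90AA1 at 0.17 ± 0.04 (adjusted p = 0.00456), HSP90AB1 at 0.16 ± 0.04 (adjusted p = 0.0122) and TRAP1 at 0.25 ± 0.06 (adjusted p = 0.00297). So were the cochaperones STIP1 at 0.24 ± 0.05 (adjusted p = 0.00174), CHORDC1 at 0.21 ± 0.06 (adjusted p = 0.0145) and FKBP4 at 0.18 ± 0.05 (adjusted p = 0.0191), and the mitochondrial HSPA9 at 0.17 ± 0.05 (adjusted p = 0.0153) and HSPD1 at 0.15 ± 0.06 (adjusted p = 0.0497). DNAJB2 was negative at -0.27 ± 0.10 (adjusted p = 0.0487). The values of HSPD1 and DNAJB2 lay next to the threshold. HSPA9 was lost without HCCLM3 si-NC replicate 1 (adjusted p = 0.0648) or si-circASH2 replicate 1 (0.0621), and HSPD1 without any 1 of 9 libraries, with adjusted p up to 0.147 without HCCLM3 si-NC replicate 1. No cause of these differences was tested.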

How the results depend on the processing

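The knockdown results were recomputed under 21 alternatives, of which 12 leave out 1 library. The difference between lines and the controls had 20, since fitting each line alone gives neither. HSPA1B had no value of its own where it was added to HSPA1A. No member past the threshold changed direction in any alternative. Calls held under every alternative for 12 of 14 members in Huh7, 9 of 14 in HCCLM3, 8 of 13 for the difference between lines and 34 of 36 for the controls. Among the controls HSPA14 and HSP90AB1 were the exceptions (for example adjusted p = 0.154 for HSPA14 without Huh7 si-NC replicate 2, and 0.0744 and 0.0565 for HSP90AB1 without Huh7 si-NC replicate 3 and without HCCLM3 si-NC replicate 2). With log2(FPKM + 0.1) and limma in place of counts, 16 other chaperone genes passed in Huh7 rather than 25, with 3 rather than 12 higher, and the members with a positive difference numbered 6 rather than 10. With log2(FPKM + 1), 4 of those other genes were higher in Huh7 and 5 members rather than 3 had a negative difference. With each line fitted alone, 21 rather than 14 members passed in HCCLM3, of which 16 rather than 11 rose and 5 rather than 3 fell. The cause was not tested. Shares of all tested features passing were computed for the main fit only. Counts of members under the alternatives therefore cannot be set against a background. Leaving out 1 library at a time gave 13 to 14 members past the threshold in Huh7, 11 to 15 in HCCLM3, 34 to 36 between the controls and 8 to 13 for the difference, of which 6 to 11 were positive; the lowest of the last 2 ranges came without HCCLM3 si-circASH2 replicate 1. For the other chaperone genes these ranges were 20 to 27 in Huh7 and 14 to 22 in HCCLM3.

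The labels do not say whether replicate numbers pair the libraries. Over 11521 genes, the deviations of same-numbered libraries from their group means correlated at r from -0.20 to 0.10. Differently numbered libraries of the same line gave r from -0.17 to 0.14. These r are taken across genes, which are not independent, and the ranges overlap, so they do not settle whether the libraries are paired. With the replicate block, 14 members passed in Huh7 (9 higher, 5 lower), 17 in HCCLM3 (14 higher, 3 lower), 14 for the difference (11 positive, 3 negative) and 35 between the controls, and the other chaperone genes numbered 27 and 20. The members gained with the block in HCCLM3 were HSPA8 (adjusted p = 0.0449), HSPD1 (0.0238) and HSPE1 (0.0420). The share of all tested features passing with the block was not computed.

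Depth limits DNAJA4 in HCCLM3, where 3 counts per library is the floor. CRYAB and HSPA2 rest on a few CPM. HSPA1A and HSPA1B share most of their sequence, so their separate values depend on how shared reads were assigned, whereas their sum does not depend on the split between them. Whether counting used strand is not given in the sources used here.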
